A study of Homo sapiens with 7 samples.

Results

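Homeobox genes outside the HOX clusters were examined in human embryonic stem cells in which a histone demethylase was switched on. The genes were taken by name from 11 families (LHX, NKX, IRX, SIX2 and its relatives, DLX, EMX, GBX, VAX, TLX, MEIS and PBX, each with its number), without LHX1, and only where the gene lies on a chromosome. This gave 55 of the 20187 chromosome genes listed in each library. The rule reads names and no values, but it was set with earlier results of these data known. LHX1, which the rule leaves out, is given with the other homeobox genes at the end. A further 7 entries with a matching name lie on alternate or patch sequences and were listed at 0 in every library.

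All 7 libraries came from SEES-3, an established human embryonic stem cell (hESC) line. In JMJD3c-hESCs, doxycycline (Dox) induces an HA-tagged catalytic domain of JMJD3, the enzyme encoded by KDM6B that removes the repressive mark H3K27me3 from histone H3. The transgene was inserted with piggyBac behind a Tet-responsive element, the cells also express the reverse Tet-transactivator, and stable clones were obtained by puromycin selection. Day 0 is the sample before Dox, and Days 1, 2, 3 and 4 are samples with Dox at 1 µg/ml. JMJD3c mut-hESCs carry the same kind of transgene with a point mutation that removes the catalytic activity, and were sampled without Dox and at Day 4 with Dox. Each condition had 1 library, so no difference below could be set against replicates and no p-values are given. All cells were kept feeder-free in the medium for undifferentiated cells.

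Homeobox genes encode transcription factors that bind DNA through a homeodomain and lay out the body axes and organ fields of the embryo. In undifferentiated cells many of them carry H3K27me3, the mark laid down by Polycomb complexes, and are silent or nearly so. EMX, VAX, GBX, IRX and LHX genes and SIX2 and its relatives pattern the forebrain, eye, hindbrain boundary and sense organs, NKX and DLX genes act in the neural tube, heart, gut, limbs and jaws, and PBX and MEIS proteins are TALE-class cofactors that bind DNA together with other homeodomain proteins.

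Values are FPKM, a density of mapped fragments scaled for transcript length and library size, as the authors calculated them with Cufflinks. They are given with the Cufflinks 95% interval, which covers the error of an estimate within its library but not differences between cultures. A gene was called upregulated when the ratio of FPKM was above 2 with more than 4 FPKM in the higher sample, and downregulated when the ratio was below 0.5 with more than 4 FPKM in the reference. KDM6B had 3.45 FPKM before Dox and 158 to 282 FPKM on Days 1 to 4, and 2.40 and 454 FPKM in the mutant line without and with Dox. This checks which libraries had Dox, but not which line carries the active enzyme. The depth estimated from the steps of low values was 3560000 reads at Day 0, the shallowest library, and at most 7340000. The 6 hESC markers, among them POU5F1 and NANOG, summed to 1574 to 2120 FPKM in the 7 libraries. At Day 4 all 6 were below Day 0, and SOX2 passed the cutoff, and all 6 were also lower with Dox in the mutant line, where none passed. The summed level of 9 mesendoderm markers (EOMES, MIXL1, T, GSC, GATA4, GATA6, SOX17, FOXA2 and CER1) went from 5.49 FPKM at Day 0 to 17.4, 97.3, 202 and 320 FPKM at Days 1 to 4, against 11.7 and 8.12 FPKM in the mutant line. In bulk RNA, fewer cells that express a gene and less RNA of it per cell cannot be told apart, and the part of the rising mesendoderm markers in the results was not tested.

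Promoter sequence was available for 37 of the 55 genes in RefSeq (GRCh38.p14). Of the genes past the cutoffs at Day 4 against Day 0, VAX1 and MEIS3 among those that rose and GBX2 and IRX1 among those that fell had an entry. The 250 bases before each start are shown 5′ to 3′ on the gene's strand with CG dinucleotides in capitals, because CG-rich promoters are the kind on which Polycomb marks are known to gather. The windows are chr10:117138271-117138520 (minus strand) for VAX1, chr19:47422234-47422483 (minus strand) for MEIS3, chr2:236168387-236168636 (minus strand) for GBX2 and chr5:3595582-3595831 (plus strand) for IRX1.
VAX1: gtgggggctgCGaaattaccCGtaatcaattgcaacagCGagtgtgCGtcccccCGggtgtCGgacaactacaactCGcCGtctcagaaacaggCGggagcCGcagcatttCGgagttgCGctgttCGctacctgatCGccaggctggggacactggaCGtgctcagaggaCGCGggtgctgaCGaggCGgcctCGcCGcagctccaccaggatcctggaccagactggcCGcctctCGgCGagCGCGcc
MEIS3: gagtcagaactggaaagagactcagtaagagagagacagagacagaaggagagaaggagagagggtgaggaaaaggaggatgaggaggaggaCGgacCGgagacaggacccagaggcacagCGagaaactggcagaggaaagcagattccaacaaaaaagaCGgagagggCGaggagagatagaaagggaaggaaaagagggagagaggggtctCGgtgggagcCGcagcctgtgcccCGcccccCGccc
GBX2: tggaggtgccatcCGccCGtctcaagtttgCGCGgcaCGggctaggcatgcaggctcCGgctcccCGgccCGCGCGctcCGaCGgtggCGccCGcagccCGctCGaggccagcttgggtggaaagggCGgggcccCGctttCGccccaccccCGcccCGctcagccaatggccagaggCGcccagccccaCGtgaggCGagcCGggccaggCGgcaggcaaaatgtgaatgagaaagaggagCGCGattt
IRX1: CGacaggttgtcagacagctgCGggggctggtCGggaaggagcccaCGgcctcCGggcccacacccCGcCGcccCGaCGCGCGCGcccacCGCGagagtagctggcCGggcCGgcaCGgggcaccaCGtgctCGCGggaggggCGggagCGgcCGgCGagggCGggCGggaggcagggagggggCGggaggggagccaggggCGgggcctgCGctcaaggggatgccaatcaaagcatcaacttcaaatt
The windows of VAX1, GBX2 and IRX1 held 26, 28 and 29 CG dinucleotides, and that of MEIS3 held 9. The first 50 bases after this start were found in a GENCODE transcript of the gene for VAX1, GBX2 and IRX1 but not for MEIS3, so the MEIS3 start counted in these libraries can be another one. Over the 37 genes the median was 23 CG dinucleotides (quartiles 16 and 27), against 16 (5 and 25) over 22197 promoters of protein-coding genes and 11 (3 and 23) over all 35114 promoters. The 20 genes that reached 1 FPKM had a median of 26 and the 17 that did not had a median of 20, so CG-rich windows were found on both sides.

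Letters bound by homeodomain proteins were searched on both strands of the same windows. TAAT, the core bound by many homeodomains, was present in 16 of 37 windows (43.2%) and in 47.4% of all promoters. It occurred at 2 positions in the VAX1 window and at none in those of MEIS3, GBX2 and IRX1. TGACAG, the MEIS core, was present in 4 windows (10.8%, against 13% of all), among them that of SIX2 at 2 positions, and TGATTGAT, bound by PBX with a partner, in 0 (against 0.416% of all). AGGTGT, bound by T-box factors, was present in 2.70% of the windows and 9.57% of all promoters. CTTTGA, bound by TCF factors, was present in 10.8% and 11.2%. AGATAA, bound by GATA factors, was present in 8.11% and 9.17%. These are matches of letters and not binding sites.

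Of the 55 genes, 31 reached 1 FPKM in at least 1 library (56.4%, against 67.6% of all chromosome genes), and 20 went over 4 FPKM (36.4%, against 53.9%). In 9 genes all 7 libraries were listed at 0 (16.4%, against 16.8%), namely DLX6, EMX2, GBX1, LHX9, NKX1-1, NKX2-3, NKX2-4, TLX3 and VAX2. The other 15 were above 0 somewhere but below 1 FPKM, and the highest value among them was 0.904 FPKM, for NKX2-5. The families differed in how many members were found. All 3 MEIS genes reached 1 FPKM, but only 2 of 6 DLX genes did. The heat map of levels shows 28 of the genes that reached 1 FPKM.

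**Figure D1:**
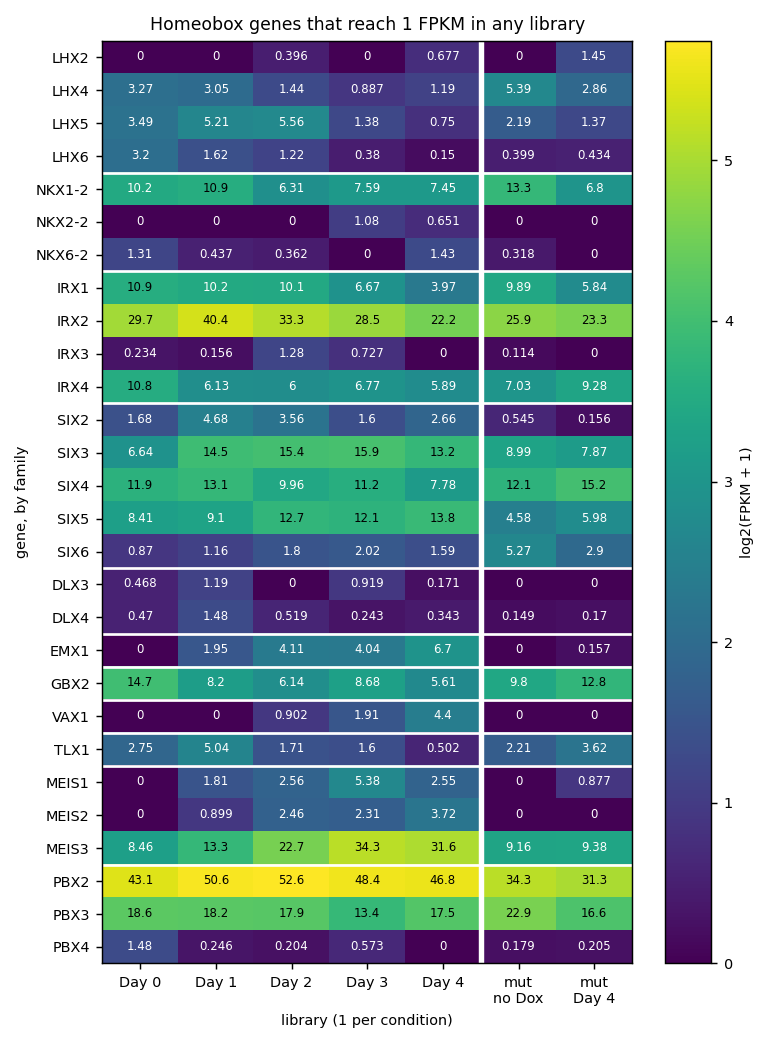
Level of 28 homeobox genes that reached 1 FPKM, by family (rows), in the 5 libraries of the JMJD3c line and the 2 of the mutant line (columns). Colour is log2(FPKM + 1) and the printed number is FPKM, and PBX2 and IRX2 are among the brightest rows while EMX1, VAX1, MEIS1 and MEIS2 go from 0 at Day 0 to 2.55 to 6.70 FPKM at Day 4.

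At Day 4 of JMJD3c, EMX1, VAX1 and MEIS3 were upregulated and GBX2 and IRX1 were downregulated relative to Day 0. These are 3 and 2 of the 14 that exceeded 4 FPKM in at least 1 of both samples, against 5.87% and 7.56% of all genes with that level. With so few genes at that level, each one weighs 7.14 percentage points. EMX1 and VAX1, listed at 0 at Day 0, are among the 14 only through Day 4. A gene at 0 that exceeds 4 FPKM is upregulated by the rule itself. Of the 12 genes over 4 FPKM at Day 0, MEIS3 was upregulated and GBX2 and IRX1 were downregulated. In each of the 5 genes the Cufflinks intervals of both days were apart, but for EMX1 and VAX1 the Day 0 interval is 0 to 0 and adds no error of its own. The mutant line gave 0 upregulated and 0 downregulated genes of 14 with Dox, where 1.25% and 1.53% of all genes passed. The untreated mutant library against Day 0, with Dox in neither, gave 1 upregulated gene (SIX6) and 0 downregulated of 14. Of all genes, 2.78% and 7.01% passed there. The downregulated share at Day 4 against Day 0, 7.56%, is thus close to that between untreated libraries of the 2 lines. Relative to the Dox-treated mutant line, EMX1, VAX1, MEIS3 and SIX5 were upregulated at Day 4 and GBX2 was downregulated, 4 and 1 of 14 genes, against 6.56% and 3.00% of all genes. Relative to the untreated mutant line, the same 4 genes were upregulated and IRX1, LHX4 and SIX6 were downregulated, 4 and 3 of 16 genes, against 7.05% and 3.90% of all genes. The 3 comparisons of Day 4 share that library, so their lists are not separate evidence. EMX1 and VAX1 were below 4 FPKM in all 3 references, so each comparison counts them only through Day 4. Over the 23 genes with a mean of at least 1 FPKM, the median log2 fold change (pseudocount of 1) was -0.08 at Day 4 against Day 0 and -0.13 with Dox in the mutant line, against -0.05 and 0.00 over all 12373 genes at that level.

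On the earlier days, SIX2 and SIX3 were upregulated and no gene was downregulated at Day 1 (2 and 0 of 15 genes, against 3.48% and 3.27% of all genes). At Day 2, EMX1, MEIS3 and SIX3 were upregulated and GBX2 was downregulated (3 and 1 of 14, against 3.90% and 4.24%). At Day 3, EMX1, MEIS1, MEIS3 and SIX3 were upregulated and none was downregulated (4 and 0 of 14, against 4.73% and 4.48%). The list of genes that passed therefore differed between days, in part through values close to the cutoffs. SIX2 and SIX3 passed at Day 1, EMX1 and MEIS3 from Day 2 on, MEIS1 at Day 3 only and VAX1 at Day 4 only. EMX1 was at 4.11 and 4.04 FPKM at Days 2 and 3, and VAX1 at 4.40 at Day 4. SIX3 missed the cutoff at Day 4 with a ratio of 1.99, and SIX2 at Day 2 with 3.56 FPKM. EMX1, MEIS1, SIX2 and VAX1 were below 4 FPKM at Day 0, so they could pass only as upregulated.

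**Figure D2:**
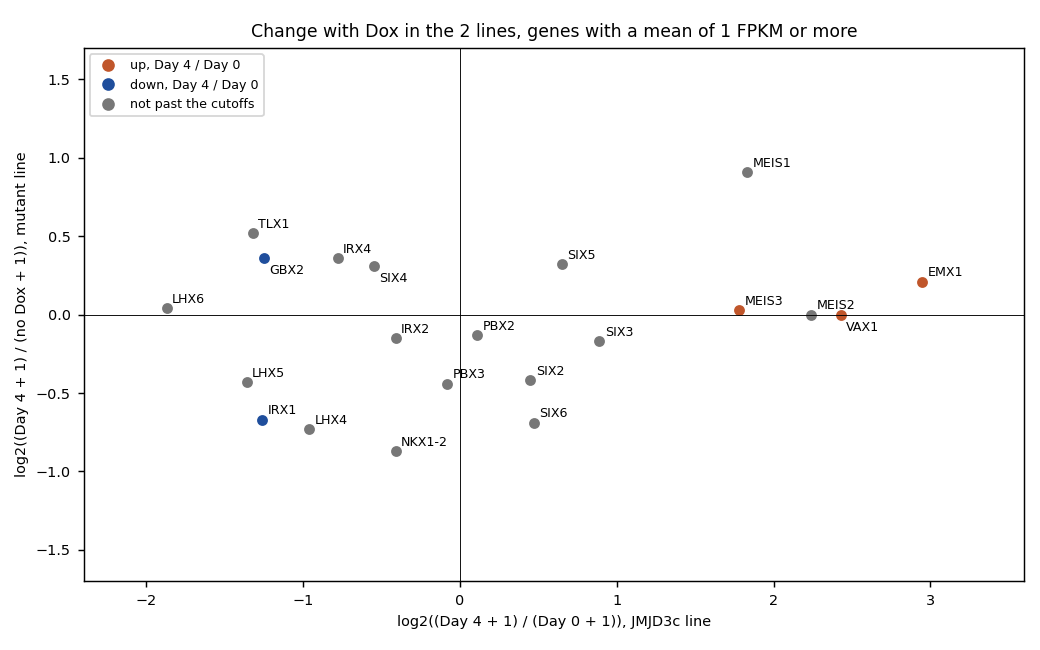
Log2 fold change with Dox in the JMJD3c line (x axis, Day 4 against Day 0) and in the mutant line (y axis, Day 4 against no Dox) for 21 of the 23 genes with a mean of at least 1 FPKM, with a pseudocount of 1. Colour marks the genes past the cutoffs on the x axis, and the points of EMX1, VAX1 and MEIS3 lie far to the right, at 2.95, 2.43 and 1.78, and near 0 on the y axis.

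EMX1 (ENSG00000135638, chromosome 2 of hg19, 73144604 to 73162020), a regulator of the developing cerebral cortex, had values of 0, 1.95, 4.11, 4.04 and 6.70 FPKM over Days 0 to 4. In the mutant line the values were 0 FPKM before Dox and 0.157 after it, the latter worth about 3 reads. Each of the 4 Dox days lay above all 3 libraries without active JMJD3c. The interval was 0 to 4.63 FPKM at Day 1 and 3.00 to 10.4 at Day 4. A level under that of 3 reads, which is 0.312 FPKM at Day 0, could be missed. The Cufflinks interval of the low value in the Dox-treated mutant, 0 to 2.11 FPKM, is wider than that level. Its paralog EMX2 was listed at 0 throughout.

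VAX1 (ENSG00000148704, chromosome 10, 118888032 to 118897812), which acts in the ventral forebrain and the optic stalk, had values of 0, 0, 0.902, 1.91 and 4.40 FPKM over Days 0 to 4 and was listed at 0 in both mutant libraries. It rose later than EMX1, and its Day 4 interval was 2.16 to 6.59 FPKM, which begins below the cutoff of 4 FPKM. For VAX1 the level of 3 reads at Day 0 is 0.196 FPKM. It lies 404 kb from EMX2 on the same chromosome, and its paralog VAX2 was listed at 0 in all libraries.

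All 3 MEIS genes were higher on every Dox day than in any of the libraries without active JMJD3c. MEIS3 (ENSG00000105419, chromosome 19, 47906381 to 47922780) had values of 8.46, 13.3, 22.7, 34.3 and 31.6 FPKM at Days 0 to 4, and of 9.16 and 9.38 FPKM in the mutant line without and with Dox. The interval was 3.48 to 15.6 FPKM at Day 0 and 24.7 to 38.5 at Day 4, and the ratio of Day 4 was 3.74 to Day 0 and 3.37 to the Dox-treated mutant. Of the 3 genes upregulated at Day 4, it was the one with a level above 4 FPKM at Day 0 already. GENCODE holds the processed pseudogenes MEIS3P1 and MEIS3P2, and reads shared with them could have been assigned to MEIS3.

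MEIS1 (ENSG00000143995, chromosome 2, 66662265 to 66801001), a cofactor in blood, eye and limb development, was listed at 0, 1.81, 2.56, 5.38 and 2.55 FPKM at Days 0 to 4, and at 0 and 0.877 FPKM in the mutant line. It passed the cutoff at Day 3 only, with an interval of 1.79 to 8.96 FPKM, and the interval with Dox in the mutant line, 0 to 4.51, overlaps it. MEIS2 (ENSG00000134138, chromosome 15, 37181406 to 37393504) had values of 0, 0.899, 2.46, 2.31 and 3.72 FPKM over Days 0 to 4 and of 0 in both mutant libraries, and passed no cutoff because it stayed below 4 FPKM. The level of 3 reads at Day 0 is 0.172 FPKM for MEIS1 and 0.159 FPKM for MEIS2.

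PBX genes encode the partners of MEIS proteins. PBX2 was listed at 43.1, 50.6, 52.6, 48.4 and 46.8 FPKM and at 34.3 and 31.3 FPKM in the mutant line. All 4 Dox days of PBX2 were above the other 3 libraries, but its Day 0 interval, 36.0 to 49.3 FPKM, overlaps that of each Dox day. It passed no cutoff. PBX3 stayed between 13.4 and 18.6 FPKM in the JMJD3c line and between 16.6 and 22.9 in the mutant line. PBX4 had 1.48 FPKM at Day 0, about 7 reads, and 0.573 FPKM or less elsewhere. Among 5 related TALE genes (PKNOX1, PKNOX2, TGIF1, TGIF2 and MKX), 3 were higher and 2 lower at Day 4 than at Day 0. With Dox in the mutant line 2 were higher and 3 lower, and 0 passed the cutoffs in either line. TGIF1 went from 115 to 137 FPKM between Days 0 and 4, and TGIF2 from 46.7 to 27.2.

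**Figure D3:**
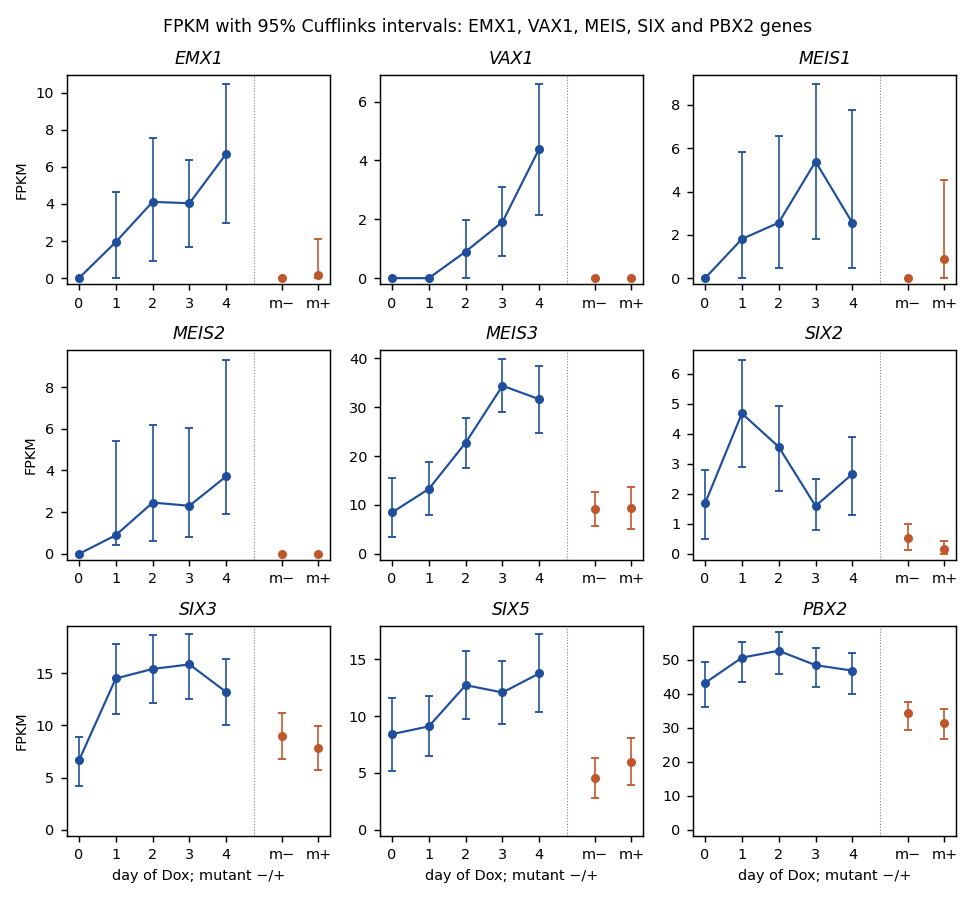
FPKM (y axis) of EMX1, VAX1, MEIS1, MEIS2, MEIS3, SIX2, SIX3, SIX5 and PBX2 by day of Dox in the JMJD3c line (blue, joined by a line) and in the mutant line without (m−) and with Dox (m+, orange). Points are the single library of each condition and bars the Cufflinks 95% interval, and MEIS3 goes from 8.46 to 31.6 FPKM from Day 0 to Day 4 while its mutant libraries stay at 9.16 and 9.38.

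SIX2 and its relatives encode partners of EYA proteins that act in the eye, forebrain, placodes, kidney and muscle. SIX3 (ENSG00000138083, chromosome 2, 45168902 to 45173216), which acts in the forebrain and eye, was listed at 6.64, 14.5, 15.4, 15.9 and 13.2 FPKM at Days 0 to 4, and at 8.99 and 7.87 FPKM in the mutant line. It had reached its new level at Day 1. Its ratios to Day 0 on Days 1, 3 and 4 were 2.19, 2.39 and 1.99, so it passed the cutoff at Days 1, 2 and 3 and not at Day 4, with intervals apart on all of these days. With the samples rescaled by the median ratio, its Day 4 ratio was 2.07, and 4 genes instead of 3 were upregulated at Day 4. SIX2 (ENSG00000170577), known for the kidney progenitors, lies 59 kb from SIX3 and was listed at 1.68, 4.68, 3.56, 1.60 and 2.66 FPKM, with 0.545 and 0.156 FPKM in the mutant line. Its peak at Day 1 had gone by Day 3, when SIX3 was at its highest.

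SIX5 (ENSG00000177045, chromosome 19, 46268043 to 46272484) had values of 8.41, 9.10, 12.7, 12.1 and 13.8 FPKM at Days 0 to 4, and of 4.58 and 5.98 FPKM in the mutant line. The ratio of Day 4 was 2.30 to the Dox-treated mutant, with intervals of 10.3 to 17.2 and 3.91 to 8.04 FPKM, but only 1.64 to Day 0, whose interval, 5.20 to 11.6, overlaps that of Day 4. Before Dox, SIX5 was at 8.41 FPKM in one line and 4.58 in the other, with overlapping intervals.

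SIX4 and SIX6 lie 197 kb apart on chromosome 14 and passed no cutoff on any day against Day 0. SIX4 was listed at 11.9, 13.1, 9.96, 11.2 and 7.78 FPKM at Days 0 to 4 and at 12.1 and 15.2 FPKM in the mutant line, and its Day 4 value was the lowest of the 7. The SIX4 interval at Day 4, 5.70 to 9.93 FPKM, overlaps that of Day 0. It lies below those of the mutant line without Dox (10.1 to 14.1) and with Dox (12.1 to 18.3). The ratio of Day 4 to the Dox-treated mutant was 0.511, just short of the cutoff. SIX6, an eye field regulator, was listed at 0.870, 1.16, 1.80, 2.02 and 1.59 FPKM in the JMJD3c line but at 5.27 and 2.90 FPKM in the mutant line. Before any Dox it was 6.07 times as high in the mutant line as in the JMJD3c line, with intervals apart. Of 6 genes for their protein partners (EYA1, EYA2, EYA3, EYA4, DACH1 and DACH2), 5 were higher and 1 was lower at Day 4 than at Day 0. Of all 20187 genes, 7343 were higher and 8144 lower there. With Dox in the mutant line 5 of the 6 were also higher and 0 lower, and 0 passed the cutoffs in either line. Apart from EYA3, all were at or below 1.43 FPKM on Days 0 and 4, and EYA4 went from 0 to 0.190. EYA3, the only one above 4 FPKM, went from 10.2 to 11.0 FPKM between Days 0 and 4.

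GBX2 (ENSG00000168505, chromosome 2, 237073879 to 237077012), which positions the boundary between midbrain and hindbrain and is also expressed in pluripotent cells, was listed at 14.7, 8.20, 6.14, 8.68 and 5.61 FPKM at Days 0 to 4, and at 9.80 and 12.8 FPKM in the mutant line. Every Dox day was below all 3 libraries without active JMJD3c. The ratio at Day 4 was 0.381 to Day 0 (intervals 2.93 to 8.29 and 9.63 to 19.8 FPKM) and 0.437 to the Dox-treated mutant (9.86 to 15.9), but the untreated mutant interval, 7.31 to 12.3, overlaps that of Day 4. The values at Day 1 and Day 3 did not pass the cutoff. Its paralog GBX1 was listed at 0 throughout.

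The IRX genes lie in 2 clusters, IRX4, IRX2 and IRX1 on chromosome 5 and IRX3, IRX5 and IRX6 on chromosome 16, and act in neural patterning and the heart. The cluster on chromosome 5 was expressed and the other was nearly silent. IRX1 (ENSG00000170549, chromosome 5, 3596168 to 3601517) had values of 10.9, 10.2, 10.1, 6.67 and 3.97 FPKM at Days 0 to 4. The ratio of Day 4 to Day 0 was 0.365, with intervals of 2.21 to 5.74 and 6.95 to 14.5 FPKM. The mutant line had 9.89 FPKM (7.04 to 12.6) before Dox and 5.84 (3.69 to 7.89) after it, a ratio of 0.591 with overlapping intervals. The Day 4 intervals of both lines overlap too. The value of IRX1 was lower with Dox in both lines, but in the mutant line the difference lies within overlapping intervals of single libraries. Its cause was not tested.

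IRX2 was listed at 29.7, 40.4, 33.3, 28.5 and 22.2 FPKM at Days 0 to 4 and at 25.9 and 23.3 FPKM in the mutant line, and passed no cutoff. IRX4 was listed at 10.8, 6.13, 6.0, 6.77 and 5.89 FPKM and at 7.03 and 9.28 FPKM in the mutant line. All 4 Dox days of IRX4 lay below the other 3 libraries, but its intervals at Day 0 and Day 4 overlap. In the cluster on chromosome 16, IRX3 reached 1.28 FPKM at Day 2 and was at or below 0.727 elsewhere, and IRX5 and IRX6 were at most 0.693 and 0.384.

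**Figure D4:**
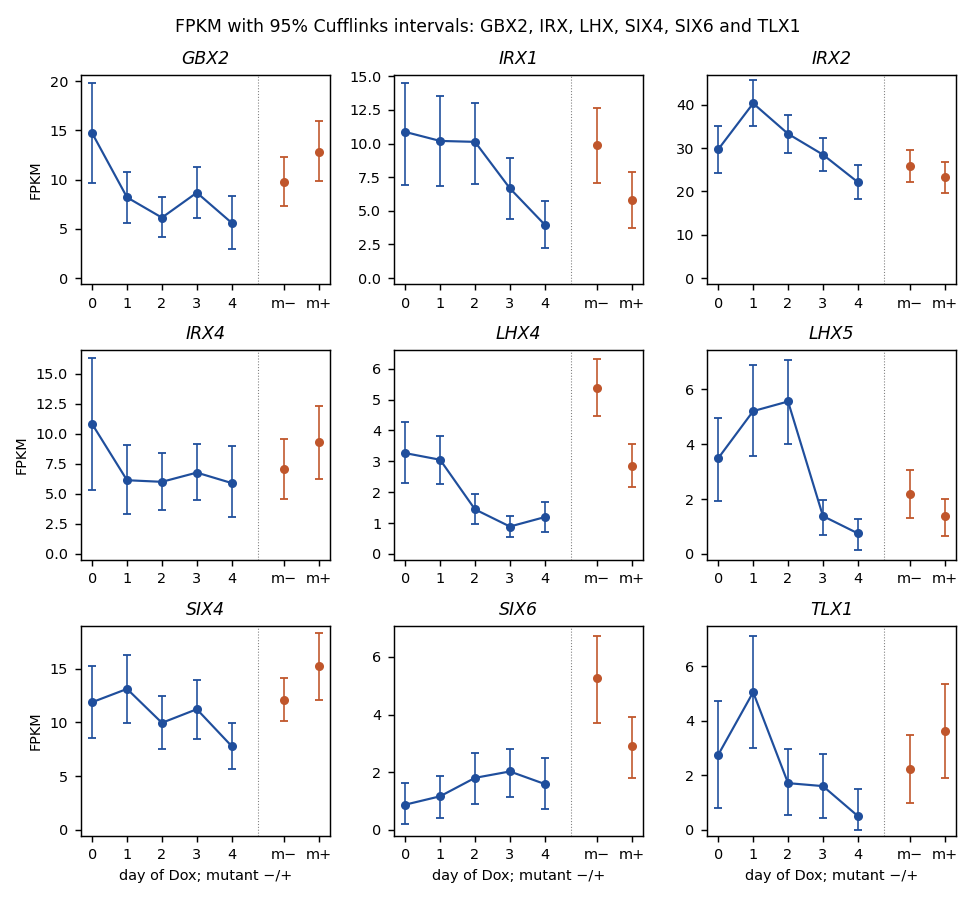
FPKM (y axis) of GBX2, IRX1, IRX2, IRX4, LHX4, LHX5, SIX4, SIX6 and TLX1 by day of Dox in the JMJD3c line (blue, joined by a line) and in the mutant line without (m−) and with Dox (m+, orange). Points are the single library of each condition and bars the Cufflinks 95% interval, and IRX1 ends at 3.97 FPKM at Day 4 and at 5.84 in the mutant with Dox, while SIX6 is at 5.27 FPKM in the untreated mutant against 0.870 at Day 0.

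The LHX genes encode homeodomain proteins with LIM domains, which act in the pituitary, forebrain and motor neurons. LHX5, a forebrain regulator, was listed at 3.49, 5.21, 5.56, 1.38 and 0.750 FPKM at Days 0 to 4 and at 2.19 and 1.37 FPKM in the mutant line. It was highest at Days 1 and 2 and then lower than at Day 0, with intervals of 1.91 to 4.97 at Day 0 and 0.140 to 1.26 at Day 4. LHX4, a pituitary regulator, was listed at 3.27, 3.05, 1.44, 0.887 and 1.19 FPKM, and at 5.39 and 2.86 FPKM in the mutant line. It was the LHX gene past a cutoff in a Day 4 comparison, at a ratio of 0.221 to the untreated mutant, and its intervals with and without Dox in the mutant line were also apart.

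LHX6 was listed at 3.20, 1.62, 1.22, 0.380 and 0.150 FPKM at Days 0 to 4 and at 0.399 and 0.434 FPKM in the mutant line, and every one of its intervals begins at 0. The Day 0 value of LHX6 thus stood above the other untreated library by far more than Dox changed the mutant line. LHX2 was listed at 0 to 0.677 FPKM in the JMJD3c line and at 0 and 1.45 in the mutant line. LHX8 and LHX3 stayed at or below 0.795 and 0.190 FPKM. Of 13 genes for LIM partners and related LIM proteins (LDB1, LDB2, SSBP2, SSBP3, SSBP4, LMO1, LMO2, LMO3, LMO4, ISL1, ISL2, LMX1A and LMX1B), 4 were higher and 7 lower at Day 4 than at Day 0. With Dox in the mutant line 2 were higher and 7 lower, and 0 passed the cutoffs in either line. LDB1, the cofactor of LIM domains, went from 39.6 to 31.0 FPKM between Days 0 and 4.

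TLX1, a regulator of spleen formation, was listed at 2.75, 5.04, 1.71, 1.60 and 0.502 FPKM at Days 0 to 4 and at 2.21 and 3.62 FPKM in the mutant line. Its Day 4 value was the lowest of the 7 and passed no cutoff, since the reference was below 4 FPKM. TLX2 was at or below 0.194 FPKM. Among the 14 NKX genes, NKX1-2, known from the neural plate and the tail end of the embryo, was the only one above 4 FPKM. It was listed at 10.2, 10.9, 6.31, 7.59 and 7.45 FPKM at Days 0 to 4 and at 13.3 and 6.80 FPKM in the mutant line, where its intervals with and without Dox were apart at a ratio of 0.512.

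The other NKX genes reported here and the DLX genes stayed low, at values worth at most about 18 reads. NKX2-2, of the ventral neural tube and pancreas, was listed at 0 over Days 0 to 2 and in the mutant line, with 1.08 and 0.651 FPKM on Days 3 and 4. Its Day 3 value was worth about 14 reads, with an interval of 0.417 to 1.81 FPKM. NKX6-2 was listed at 1.31, 0.437, 0.362, 0 and 1.43 FPKM at Days 0 to 4 and at 0.318 and 0 in the mutant line. NKX2-1, NKX2-6, NKX2-8, NKX3-2, NKX6-1 and NKX6-3 stayed at or below 0.441 FPKM. Of the DLX genes, DLX3 and DLX4 were at most 1.19 and 1.48 FPKM, both at Day 1, and DLX1, DLX2 and DLX5 were at most 0.195, 0.165 and 0.627. Apart from NKX1-2, none of the NKX and DLX genes named here went above 1.48 FPKM.

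Across the time course, the position of all 4 Dox days relative to the 3 libraries without active JMJD3c (Day 0 and both mutant libraries) was counted for the genes that reached 1 FPKM. All 4 days lay above in 8 of 31 genes (25.8%), among them EMX1, MEIS1, MEIS2, MEIS3, PBX2, SIX3 and SIX5, against 7.36% of 13651 genes at that level. Of these, EMX1, MEIS1 and MEIS2 reached 1 FPKM only on Dox days of the JMJD3c line. Their highest values without active JMJD3c were 0.157, 0.877 and 0 FPKM. They are counted only through the days on which they were high, so the share above is partly set by the filter. All 4 days lay below in 2 of 31 genes (6.45%), GBX2 and IRX4, against 6.34%. At Day 4 alone, 13 genes were above all 3 libraries (41.9%) and 11 were below (35.5%), against 26.4% and 29.0% of all genes. EMX1, MEIS1, MEIS2, VAX1 and NKX2-2 are among the 13 and reached 1 FPKM only on Dox days of the JMJD3c line. The share above at Day 4 is thus also partly set by the filter. The days are successive samples of 1 line and not replicates, genes of 1 cluster are not independent, and the count was chosen after values were known, so these shares are a description.

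A list of 26 other homeobox regulators (OTX, EN, MSX, CDX, BARX, ALX, PRRX and single genes such as GSC, HHEX and LHX1) was set beside these genes. At Day 4, 17 of the 26 were higher and 4 lower than at Day 0, where 7343 of all 20187 genes were higher and 8144 lower. OTX2, MSX1, MSX2, GSC, BARX1 and LHX1 were upregulated and PRRX2 was downregulated, 6 and 1 of the 9 that exceeded 4 FPKM in either library, against 5.87% and 7.56% of all genes. MSX1, MSX2, GSC, BARX1 and LHX1 were below 4 FPKM at Day 0 and are among the 9 only through Day 4. OTX2, which acts in anterior brain and endoderm, went from 18.9 to 47.7 FPKM between Days 0 and 4, and GSC, a gene of the organizer, from 0 to 10.5. LHX1 had 0, 4.21, 6.42, 11.2 and 15.9 FPKM over Days 0 to 4, and 0.417 and 0.318 FPKM in the mutant line. In the mutant line 1 was higher and 13 were lower with Dox, and OTX2 and PRRX2 were among the 3 downregulated, of 4 above 4 FPKM, against 1.53% of all genes. GSC is also a mesendoderm marker and OTX2 a neural ectoderm marker, so these lists overlap.

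Markers of other cell types were counted beside these genes. Of 6 neural ectoderm markers, all were above Day 0 at Day 4, where 7343 of all 20187 genes were higher and 8144 lower. PAX6, ZIC1 and OTX2 were upregulated, 3 of the 4 that exceeded 4 FPKM in either library, against 5.87% of all genes. PAX6 was below 4 FPKM at Day 0 and is among the 4 only through Day 4. The summed level of the 6 markers was 133, 177, 199, 223 and 232 FPKM over Days 0 to 4, and 106 and 130 FPKM in the mutant line without and with Dox. NES made up 106 FPKM of this sum at Day 0 and 162 at Day 4, and was also higher with Dox in the mutant line (85.5 and 115 FPKM). The other markers had different courses. PAX6 had 2.22, 9.62, 6.43, 2.72 and 5.91 FPKM over Days 0 to 4, with its highest value at Day 1, and ZIC1 had 4.99, 22.2, 22.0, 26.2 and 15.8. SOX1 reached 1.03 FPKM at Day 2 and was at 0.105 at Day 4, and POU3F2 was at 0.106 at Day 4. SOX1 and POU3F2 were listed at 0 at Day 0, so they count as higher at Day 4 only through these low values. Of 5 neural crest markers, 4 were higher and 1 was lower at Day 4, with sums of 13.6 and 16.1 FPKM. Only 1 of them exceeded 4 FPKM in either library, and 0 passed the cutoffs. The trophoblast markers CGA, HAND1 and GCM1 were listed at 0 in every library, and KRT7 at 3.98 and 1.06 FPKM on Days 0 and 4. The fibroblast markers summed to 149 and 155 FPKM, with DCN and LUM at 0 in every library. The part of any of these cell types in the homeobox values was not tested.

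Of the 55 genes, 20 share exon sequence with a gene on the opposite strand in GENCODE, among them EMX1, GBX2 (GBX2-AS1), IRX1, SIX3 (SIX3-AS1), SIX5 (DM1-AS), MEIS1, MEIS2, LHX4, LHX5 and NKX1-2. The libraries were made with a directional kit, but whether the strand was used in counting is not given in the sources used here, so for these genes reads from both strands cannot be told apart. VAX1, MEIS3, SIX2, SIX4, SIX6, TLX1, PBX2, PBX3 and PBX4 have no such neighbour.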

How the data were processed

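Directional poly(A) libraries from 7 samples, 1 per condition, were sequenced as single-end reads of 150 bases. Per the methods of the authors, TopHat (version 2.0.13) aligned the reads to hg19 and Cufflinks (version 2.1.1) gave FPKM per gene, deposited with its 95% interval in FPKM. The submitters' processing notes also list CASAVA 1.4. The annotation release is not given in the sources used here. Groups were taken from the labels.

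From these values, ratios and log2 fold changes (pseudocount of 1) were calculated between libraries. No test was made because no condition has a replicate. All 55 genes and 385 values were kept, each value lies within its interval, and coordinates were shifted to count from 1, since 24 starts then coincide with exon starts of GENCODE release 44 (4 without the shift). Genes with at least 1 FPKM in any library were named, apart from some that are counted but not reported here, and those past the cutoffs were described in full. The gene names, lists and comparisons were chosen with earlier results of these data known.

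The FPKM values hold no counts. Depth was inferred from the spacing of low values, which reflects whole reads, in 283 genes with 1 exon and 1 transcript (length minus 200 bases), and the FPKM worth 3 reads and approximate reads from the longest transcript. These cover counting error only. Promoters are the 250 bases before RefSeq starts. Python 3.11.15, numpy 2.4.6 and pandas 2.3.3 were used. In simulated libraries for Day 4 against Day 0 (20187 genes), 200 of 200 genes changed 4-fold were called, and 29 unchanged genes. The changed genes all began above the cutoff of 4 FPKM, and the only noise was counting error. Their recovery at a ratio of 2 was thus nearly given. It checks the calculation and not calls for genes that start at 0, smaller changes or differences between cultures. The alternatives changed the FPKM cutoff, the use of intervals, pseudocount, scaling, reference and treated day.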

Additional observations from a re-analysis of the deposited data

Results flagged for a closer look

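GBX2 moved in opposite directions in the lines. Its log2 fold change was -1.25 at Day 4 against Day 0 in the JMJD3c line (14.7 and 5.61 FPKM) and 0.36 with Dox in the mutant line (9.80 and 12.8 FPKM). With 1 library per condition the difference between the lines was not tested, and the intervals of the mutant libraries overlap.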

How the results depend on the processing

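Counts of genes past the cutoffs moved with the FPKM cutoff. At Day 4 against Day 0, the 3 upregulated genes became 6 with a cutoff of 1 FPKM and 15 without one, and the 2 downregulated genes became 7 and 10. Against the Dox-treated mutant, the 4 upregulated genes became 9 and 19 and the 1 downregulated gene became 4 and 7. In the mutant line, upregulated genes went from 0 to 1 and 5, and downregulated genes from 0 to 5 without a cutoff. With Day 3 as the treated sample, 0 genes were downregulated. With the lower cutoffs the added genes lie at or below 4 FPKM in the higher sample. Without a cutoff, a gene at 0 in one library and above 0 in the other passes by the rule itself. IRX6, at 0 and 0.140 FPKM on Days 0 and 4, is an example. The shares of all genes at the lower cutoffs are not given here, so the larger counts are not results about these genes. The medians stayed at or below 0 in every alternative and moved by less than 0.2. A pseudocount of 0.1 gave log2 fold changes of 6.09 for EMX1 and 5.49 for VAX1, and the untreated mutant as reference gave -0.71 for GBX2 and 1.40 for SIX5. Rescaling by the median ratio gave 4 upregulated genes at Day 4 against Day 0, with SIX3 added. No result was reversed. No paired analysis was possible because each condition had 1 library.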
